A study of Homo sapiens with 12 samples.

Results

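Solute carriers are membrane proteins that move amino acids, sugars, ions, nucleotide sugars and metabolites across the plasma membrane and the membranes of lysosomes, Golgi and mitochondria. Genes were taken here by a name rule: every gene symbol of the form SLC, a number, a letter and a number, as the current nomenclature writes it. This found 20 of the 14580 named genes measured, each with 1 probe set, so no choice between probe sets was needed. RefSeq lists 380 genes whose symbols match this rule, and the others, among them the glucose, glutamine, cystine and lactate carriers, were not analysed here. Many of the 20 are transporters that received an SLC number only recently and are better known by older names such as MFSD, PQLC or TMEM.

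RNA of A2058, an established line of human melanoma cells, was hybridised to Affymetrix arrays after 24 h of treatment, with 4 groups of 3 arrays. The DT group received dabrafenib (100 nM), an inhibitor of RAF kinases, together with trametinib (10 nM), an inhibitor of MEK. Cells of the E group received entinostat (1 µM), an inhibitor of class I histone deacetylases. The DTE group received all 3 agents at these doses, and the DMSO group received only the solvent. The titles call the arrays biological replicates and the series design calls them technical triplicates, so the p-values rest on a spread that may be no more than technical.

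Levels are given as log2 intensity, and a change is a difference of group means on that scale. A gene is called changed when limma's adjusted p over all 14580 genes is under 0.05, and adjusted p-values below are all of this kind. Intensities of different probe sets are not comparable with each other, so no gene's level is set against another gene's. All 20 genes had group means above the lower quartile of gene means in every group, which was 2.91 in DT, 3.12 in E, 2.99 in DTE and 2.98 in DMSO. Array medians over all genes were 4.40 to 4.60 in DT, 4.87 to 4.90 in E, 4.61 to 4.69 in DTE and 4.58 to 4.80 in DMSO, so changes are also given after quantile normalization, in which every array has the same distribution. The median change of all genes in DT against DMSO was -0.17 as deposited and 0.00 after quantile normalization. As a check of the cell type, 0 of 9 measured melanocyte lineage markers lay below the lower quartile in any group. Of the other cell types' markers, 1 of 3 fibroblast genes (DCN) and 1 of 2 blood genes (CD14) lay below it in every group, and of 6 epithelial genes 0 in DT, 1 in E, 1 in DTE and 2 in DMSO, so most of those markers also lay above it and this quartile does not separate the cell types. In bulk RNA, fewer cells of a type and less RNA per cell cannot be told apart.

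The 20 proteins fall into a few compartments. SLC66A1 (also PQLC2) exports cationic amino acids from lysosomes, and SLC66A2 and SLC66A3 are its relatives with the same PQ-loop fold. SLC49A4 (DIRC2) is a lysosomal membrane protein. SLC35D4 (TMEM241) belongs to the family of Golgi nucleotide sugar transporters, and SLC35F6 to a less studied branch of it. SLC25A15 and SLC25A2 carry ornithine across the inner mitochondrial membrane for the urea cycle. SLC61A1 (MFSD5) transports molybdate, SLC75A1 (MFSD10, TETRAN) organic anions, and SLC60A2 (MFSD4B, NaGLT1) was described in rat kidney as a sodium-dependent glucose transporter. SLC60A1, SLC33A2, SLC49A3, SLC67A2, SLC68A1, SLC71A1 and SLC71A2 are further carriers of the major facilitator superfamily, and SLC38A12 (TMEM104) and SLC9D1 (TMCO3) complete the set.

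The promoters of 4 of these genes are shown because their messages moved in different directions under the same drugs, as described below. SLC66A3 was higher with entinostat, SLC66A1, from the same family, was lowest with all 3 drugs, SLC25A15 was lower with dabrafenib and trametinib, and SLC60A2 was lower with dabrafenib and trametinib and higher when entinostat was added to them. Each sequence is the 250 bases before the gene's start in RefSeq (build GRCh38.p14), read 5′ to 3′ on the gene's own strand. Capitals mark matches on either strand to the GC box GGGCGG (the Sp1 family's motif), the E-box CACGTG (bound by MITF and related factors) or the ETS motif CCGGAAG.
SLC66A3, chr2:11155217-11155466, plus strand: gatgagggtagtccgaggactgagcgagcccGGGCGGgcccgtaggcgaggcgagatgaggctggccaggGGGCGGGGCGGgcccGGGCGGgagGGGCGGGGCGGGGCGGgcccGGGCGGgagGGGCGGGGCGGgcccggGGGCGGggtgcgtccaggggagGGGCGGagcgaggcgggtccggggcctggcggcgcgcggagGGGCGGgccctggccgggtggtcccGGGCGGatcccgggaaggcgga
SLC66A1, chr1:19312076-19312325, plus strand: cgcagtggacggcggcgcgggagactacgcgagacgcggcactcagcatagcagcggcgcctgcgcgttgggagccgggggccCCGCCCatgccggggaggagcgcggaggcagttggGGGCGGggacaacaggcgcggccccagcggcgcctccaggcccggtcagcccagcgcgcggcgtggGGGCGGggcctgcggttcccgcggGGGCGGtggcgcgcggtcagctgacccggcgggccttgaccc
SLC25A15, chr13:40789361-40789610, plus strand: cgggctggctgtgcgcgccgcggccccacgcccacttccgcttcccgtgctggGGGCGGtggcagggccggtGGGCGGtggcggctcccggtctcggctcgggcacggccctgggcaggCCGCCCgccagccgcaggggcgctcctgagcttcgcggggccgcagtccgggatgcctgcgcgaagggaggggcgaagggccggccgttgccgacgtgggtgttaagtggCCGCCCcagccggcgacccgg
SLC60A2, chr6:111259089-111259338, plus strand: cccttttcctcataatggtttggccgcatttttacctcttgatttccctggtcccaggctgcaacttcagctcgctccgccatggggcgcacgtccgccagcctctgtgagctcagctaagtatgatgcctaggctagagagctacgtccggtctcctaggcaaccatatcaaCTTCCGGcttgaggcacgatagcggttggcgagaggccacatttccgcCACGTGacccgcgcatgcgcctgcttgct

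SLC66A3 held 14 GC box matches in this window, several of them overlapping or adjoining, while SLC66A1 and SLC25A15 held 4 each and SLC60A2 held 0. SLC60A2 was the only one of the 15 members with a promoter sequence at hand that held the E-box, and it also held 1 ETS match. Over all 15, the GC box was present in 14 (93.3%), against 57.9% of the 10560 measured genes with a promoter sequence. The E-box was found in 1 (6.7%, against 7.9% of all) and the ETS motif in 2 (13.3%, against 12.4%). AP-1 (TGANTCA) and CRE (TGACGTCA) motifs were found in 0 of 15, against 5.1% and 2.4% of all genes. Upstream GC content had a median of 71.2% in the 15 members, with a range of 58.0% to 84.4%, and of 62.8% over all genes. How far base composition accounts for the GC box share was not tested, nor was whether any match is used in these cells.

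DT was compared with DMSO to see the effect of blocking RAF and MEK alone. Of the 20 carriers 0 rose and 4 fell (20% of the members). Over all genes 3.23% were called higher and 24.1% lower, so the share of falling members was near the background. The mitochondrial ornithine carrier SLC25A15 fell 1.81-fold, and the members' median change was -0.26, against -0.17 for all genes.

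SLC25A15 read 5.26, 5.59 and 5.35 in the DT arrays, against 6.02, 6.38 and 6.37 in DMSO. Every DT array lay below every DMSO array, and the change of -0.86 (SE 0.16, adjusted p = 0.00063) kept its call after quantile normalization (-0.53, adjusted p = 0.0181). SLC60A2 had 6.05, 6.40 and 5.84 in DT, against 6.47, 7.22 and 6.42 in DMSO (change -0.61, SE 0.19, adjusted p = 0.024). The groups did not overlap, but DMSO replicate 2 stood far above the other two DMSO arrays, and without it the change was -0.35 (adjusted p = 0.17). The call was also lost without DT replicate 1 or DT replicate 3 and after quantile normalization (-0.25). SLC35D4 read 4.91, 5.47 and 5.26 in DT, against 5.69, 6.17 and 5.47 in DMSO (change -0.56, SE 0.17, adjusted p = 0.017). Its lowest DMSO array was almost level with its highest DT array, and the call was lost after quantile normalization (-0.29), without DMSO replicate 2 (-0.37, adjusted p = 0.12) and without DT replicate 1.

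SLC71A1, first described as a hippocampus-abundant transcript of the mouse, had 7.56, 7.82 and 7.67 in DT, against 7.99, 8.16 and 7.98 in DMSO (change -0.36, SE 0.13, adjusted p = 0.041), and stood at 0.02 (adjusted p = 0.94) after quantile normalization. Its call was lost on leaving out any of 8 of the 12 arrays. After quantile normalization or median centring 1 member was called lower (SLC25A15) and 1 higher, against 4 lower as deposited. Over all genes 8.55% were then higher and 7.86% lower after quantile normalization, and 8.08% and 12% after median centring. The higher one was the lysosomal SLC49A4, whose change was 0.47 with arrays quantile-normalized (adjusted p = 0.0014) and 0.11 as deposited (adjusted p = 0.55). Leaving out DMSO replicate 2 or DT replicate 1 left 1 call, and leaving out DT replicate 3 left 2. Among markers of the lineage, the summed intensity of the 9 melanocyte genes was 2855 to 3327 in DT and 1715 to 1777 in DMSO, and its part in these changes was not tested.

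E was compared with DMSO to see the effect of inhibiting histone deacetylases alone. It raised 2 carriers and lowered 2 (10% each), against 12.5% of all genes called higher and 3.54% lower. SLC35D4, of the Golgi nucleotide sugar transporter family, rose 2.66-fold, which was the 101st largest rise among the 14580 genes. SLC66A3 rose 1.81-fold. SLC71A1 fell 1.53-fold and the molybdate transporter SLC61A1 1.43-fold.

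SLC35D4 read 7.28, 7.18 and 7.10 in the E arrays, against 5.69, 6.17 and 5.47 in DMSO. The lowest E array was well above the highest DMSO array, and the change was 1.41 (SE 0.17, adjusted p = 9.7e-06). SLC66A3 had 6.22, 6.14 and 6.20 in E, against 5.44, 5.47 and 5.08 in DMSO (change 0.86, SE 0.14, adjusted p = 0.00021). Its 3 E arrays were close together and all above DMSO. Its relative SLC66A2 stood at 0.25 (SE 0.14, adjusted p = 0.25) and SLC66A1 at -0.25 (SE 0.14, adjusted p = 0.26). SLC66A1 was called lower after quantile normalization (-0.41, adjusted p = 0.022).

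SLC71A1 read 7.45, 7.44 and 7.39 in E, against 7.99, 8.16 and 7.98 in DMSO. The groups were well apart (change -0.61, SE 0.13, adjusted p = 0.0023), and this fall was the 146th largest of all genes. SLC61A1 had 5.09, 5.12 and 5.199 in E, against 5.61, 5.80 and 5.53 in DMSO (change -0.51, SE 0.15, adjusted p = 0.026). That call was lost on leaving out DMSO replicate 1, DMSO replicate 2 or any 1 of the E arrays (adjusted p up to 0.097), although the change stayed between -0.57 and -0.43. SLC60A2 lay at 7.28, 7.14 and 7.12 in E, overlapping DMSO only through DMSO replicate 2 (change 0.47, SE 0.19, adjusted p = 0.11). Without that array the change was 0.73 (adjusted p = 0.0066).

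After quantile normalization or median centring 2 members were higher and 4 lower in E, SLC25A15 and SLC66A1 joining the falls. Over all genes 9.67% were then higher and 8.45% lower after quantile normalization, and 7.53% and 16.3% after median centring, so on the second scale the members' 20% lower was near the background. SLC25A15 read 5.48, 6.12 and 5.98 in E, with 1 array inside the DMSO range, with a change of -0.40 as deposited (adjusted p = 0.11), and of -0.48 with arrays quantile-normalized (adjusted p = 0.028). The summed intensity of 3 fibroblast markers was 301 to 359 in E and 166 to 193 in DMSO, and that of 6 epithelial markers 139 to 161 in E and 91.0 to 114.5 in DMSO. In DTE the fibroblast sum was 439 to 600 and the epithelial sum 85.2 to 97.4. In DT they were 185 to 246 and 67.0 to 81.8. Of the fibroblast genes, LUM changed by 1.63, DCN by 0.67 and THY1 by 0.10 in DTE against DMSO. Such a sum is weighted toward the brighter probe sets. The part of these markers in the carrier changes was not tested.

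With all 3 drugs, DTE against DMSO, 2 carriers rose (10%) and 6 fell (30%), against 9.64% and 22.5% of all genes. SLC35D4 and SLC66A3 were again higher. The lysosomal exporter SLC66A1 and the ornithine carrier SLC25A15 were the largest falls, 2.02-fold and 2.00-fold, followed by SLC71A1 (1.67-fold), SLC61A1 (1.62-fold), SLC71A2 (1.48-fold) and SLC75A1 (1.42-fold). The members' median change was -0.25, against -0.11 for all genes. These comparisons with DMSO share the same 3 DMSO arrays.

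SLC66A1 read 4.31, 4.50 and 4.17 in the DTE arrays, against 5.36, 5.51 and 5.15 in DMSO (change -1.01, SE 0.14, adjusted p = 2e-05). No DTE array came near the DMSO arrays. SLC25A15 had 5.15, 5.25 and 5.38 in DTE, against 6.02, 6.38 and 6.37 in DMSO (change -0.999, SE 0.16, adjusted p = 0.00011). Here too no array overlapped.

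SLC35D4 read 6.57, 6.76 and 6.81 in DTE, between its levels in E and in DMSO (change against DMSO 0.94, SE 0.17, adjusted p = 0.00028). SLC66A3 read 5.99, 6.01 and 6.15 (change 0.72, SE 0.14, adjusted p = 0.00052). SLC61A1 was uneven among the DTE arrays, at 4.95, 4.598 and 5.30, yet all were below DMSO (change -0.70, SE 0.15, adjusted p = 0.0016). SLC71A1 was at 7.08, 7.32 and 7.51 (change -0.74, SE 0.13, adjusted p = 0.00022).

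SLC71A2 had 8.28, 8.34 and 8.56 in DTE, against 8.91, 9.11 and 8.86 in DMSO (change -0.57, SE 0.13, adjusted p = 0.0024). SLC75A1 had 6.75, 6.74 and 6.82 in DTE, against 7.16, 7.50 and 7.17 in DMSO (change -0.51, SE 0.14, adjusted p = 0.011), a call lost after quantile normalization (-0.25, adjusted p = 0.16) and without DMSO replicate 2 (-0.39, adjusted p = 0.067). After quantile normalization 4 members were higher and 5 lower, against 14.2% of all genes in each direction, the added rises being SLC49A4 (0.49, adjusted p = 0.00065) and SLC9D1 (0.30, adjusted p = 0.027). The other 7 calls against DMSO in this comparison held in all 20 alternative settings. The setting with symbols as annotated repeats the main fit, because 0 symbols changed.

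**Figure D1:**
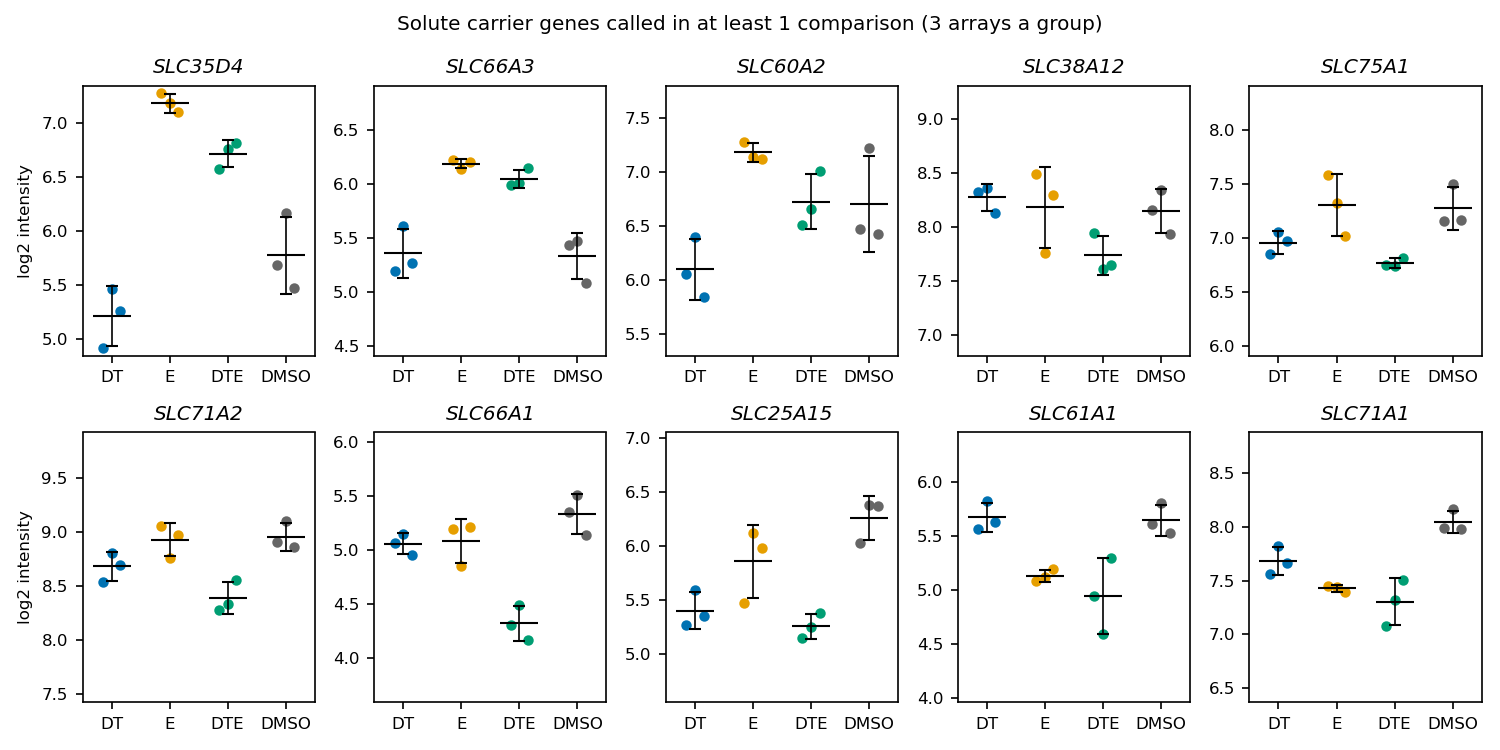
Log2 intensity (vertical axis, each panel spanning 2.5 log2 units) of the 10 solute carrier genes called in at least 1 comparison, in DT, E, DTE and DMSO. Points are single arrays, wide bars the mean and whiskers the SD (n = 3). SLC35D4 and SLC66A3 are high in the E and DTE panels, SLC66A1 is lowest in DTE, and 1 DMSO array of SLC60A2 stands at 7.22, above the others at 6.47 and 6.42.

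**Figure D2:**
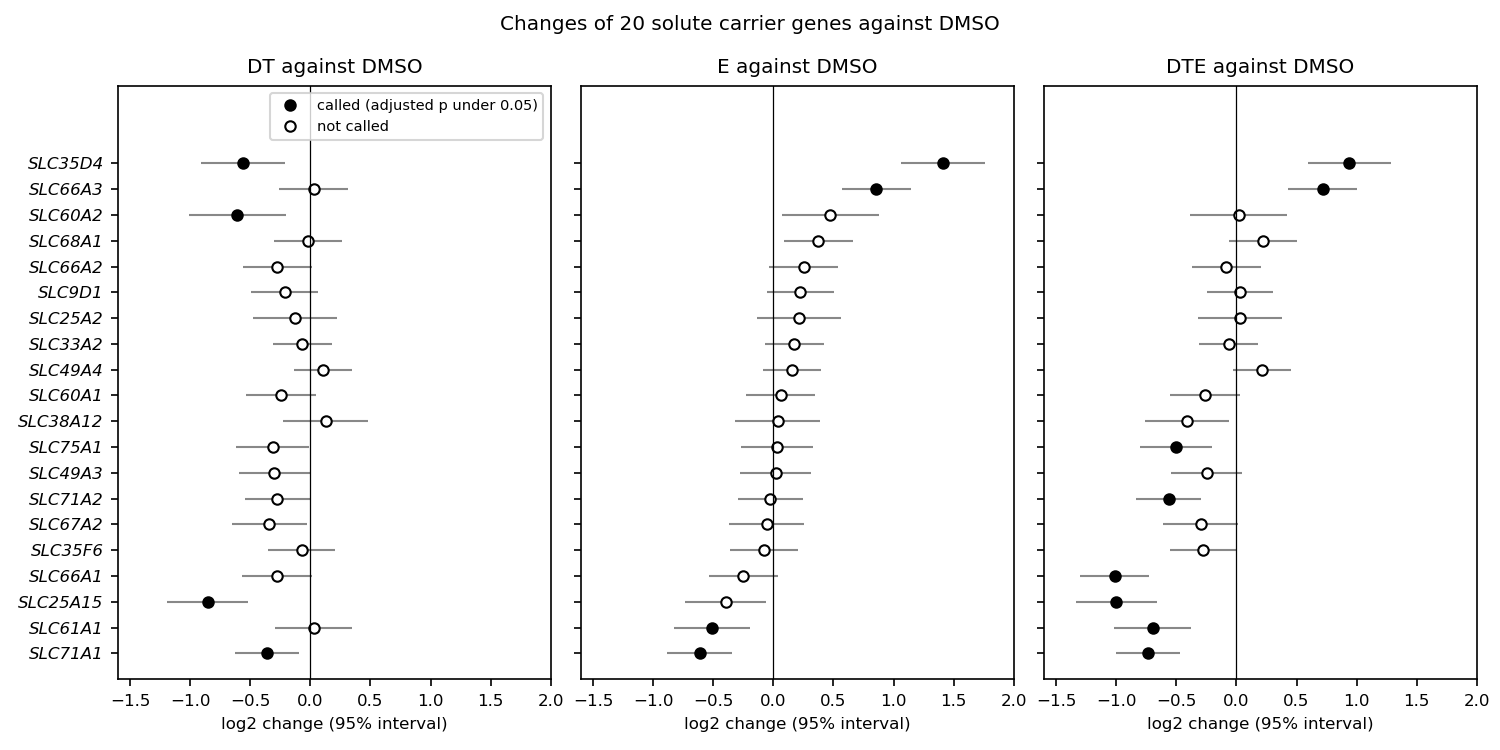
Log2 change (horizontal axis) of all 20 genes in DT, E and DTE against DMSO, with 95% intervals from the limma fit as grey lines. Filled points are called changed and open points are not. The filled points number 4 in DT, 4 in E and 8 in DTE.

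Adding entinostat to dabrafenib and trametinib, DTE against DT, raised 3 carriers (15%) and lowered 4 (20%), against 13.8% and 5.09% of all genes. SLC35D4 rose 2.84-fold, the 103rd largest rise among all genes, SLC66A3 rose 1.62-fold and SLC60A2 rose 1.55-fold. SLC66A1, SLC61A1, SLC38A12 and SLC71A1 fell by 1.66-fold, 1.65-fold, 1.45-fold and 1.30-fold.

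SLC35D4 stood at 6.57, 6.76 and 6.81 in DTE, against 4.91, 5.47 and 5.26 in DT (change 1.503, SE 0.17, adjusted p = 3.4e-06). No DTE array came near the DT arrays. SLC66A3 was at 5.99 to 6.15 in DTE, against 5.19 to 5.61 in DT (change 0.69, SE 0.14, adjusted p = 0.0011). SLC60A2 was at 6.51, 6.66 and 7.002 in DTE, against 6.05, 6.40 and 5.84 in DT (change 0.63, SE 0.19, adjusted p = 0.027). This last call was lost without DT replicate 1, DT replicate 3, DTE replicate 2 or DTE replicate 3, and leaving out each of the 12 arrays gave changes of 0.49 to 0.78.

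SLC66A1 read 4.31, 4.50 and 4.17 in DTE, against 5.07, 5.15 and 4.96 in DT (change -0.74, SE 0.14, adjusted p = 0.00075). SLC61A1 was at 4.598 to 5.30 in DTE, against 5.57 to 5.83 in DT (change -0.73, SE 0.15, adjusted p = 0.0019), and these falls were the 137th and 145th largest of all genes. SLC38A12 had 7.95, 7.61 and 7.65 in DTE, against 8.33, 8.37 and 8.13 in DT (change -0.54, SE 0.17, adjusted p = 0.031). It did not pass in E against DMSO, where it stood at 0.03 (adjusted p = 0.93), or in DTE against E (-0.44, adjusted p = 0.061). Its E replicate 2, at 7.76, lay well below the other E arrays at 8.49 and 8.30, and without it the change in DTE against E was -0.65 (adjusted p = 0.0078).

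SLC71A1 had a change of -0.38 (SE 0.13, adjusted p = 0.046). Single arrays decided this call and that of SLC38A12 too. SLC38A12 lost its call without DT replicate 1, DT replicate 2, DTE replicate 2 or DTE replicate 3 (adjusted p up to 0.11), and SLC71A1 on leaving out any of 10 of the 12 arrays (adjusted p up to 0.19). After quantile normalization 3 members were higher and 5 lower, and after median centring 2 were higher and 6 lower. Over all genes these scales gave 12.2% higher and 12% lower, and 9.36% and 15.4%.

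Adding dabrafenib and trametinib to entinostat, DTE against E, raised 0 carriers and lowered 5 (25%), against 2.08% and 22.4% of all genes. SLC66A1 fell 1.70-fold, SLC25A15 1.52-fold, SLC71A2 and SLC75A1 1.45-fold each, and SLC35D4 1.38-fold. The share of falling members was near the background.

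SLC66A1 read 4.31, 4.50 and 4.17 in DTE, against 5.196, 4.85 and 5.21 in E (change -0.76, SE 0.14, adjusted p = 0.00072). It kept its call in all 20 settings, at -0.54 after quantile normalization. SLC25A15 was at 5.15 to 5.38 in DTE, against 5.48 to 6.12 in E (change -0.60, SE 0.16, adjusted p = 0.011). SLC71A2 was at 8.28 to 8.56 in DTE, against 8.76 to 9.06 in E (change -0.54, SE 0.13, adjusted p = 0.0059). SLC75A1 was at 6.74 to 6.82 in DTE, against 7.02 to 7.58 in E (change -0.54, SE 0.14, adjusted p = 0.011). None of these groups overlapped.

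After quantile normalization 1 member was lower (SLC66A1) and 1 higher, SLC49A4 at 0.37 (adjusted p = 0.010), and after median centring SLC66A1 alone was called. Over all genes 6.99% were higher and 5.84% lower on the first scale, and 6.71% and 6.91% on the second. SLC25A15, SLC71A2, SLC75A1 and SLC35D4 stood at -0.34, -0.25, -0.23 and -0.16 after quantile normalization, where all genes had a median of 0.00. Leaving out E replicate 2 ended the call of SLC25A15 (adjusted p = 0.061), and leaving out E replicate 1 that of SLC75A1 (adjusted p = 0.066). SLC35D4 (-0.47, adjusted p = 0.047) lost its call without any of 8 of the 12 arrays.

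The departure from additivity is the change in DTE minus the changes in DT and in E, on the log2 scale. It was called by limma for 0 of 20 carriers, against 0.562% of all genes called higher and 0.473% lower. In the same limma fit 2 carriers had an unadjusted p under 0.05, and the share of all genes at that threshold was not counted. SLC66A1 was the nearest, at -0.48 (SE 0.19, unadjusted p = 0.023, adjusted p = 0.32), followed by SLC38A12 at -0.57 (SE 0.24, unadjusted p = 0.027, adjusted p = 0.34). The fall of SLC66A1 in DTE was thus larger than the sum of its changes in DT (-0.28) and E (-0.25) in these arrays, by an amount that did not pass the test. SLC35D4 departed by 0.09 (SE 0.23, adjusted p = 0.92) and SLC25A15 by 0.25 (SE 0.23, adjusted p = 0.72).

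Each drug step was measured on separate arrays with and without the other treatment. For entinostat, the changes E against DMSO and DTE against DT correlated across the 20 carriers with a Pearson r of 0.91 and a Spearman rho of 0.88 (0.69 and 0.53 across all 14580 genes). The sign was the same in 16 of 20 carriers and in 9763 of all 14580 genes. For dabrafenib and trametinib, r was 0.57 and rho 0.55 across the carriers (0.70 and 0.56 across all genes). Here 17 of 20 carriers and 10960 of all 14580 genes had the same sign. All these values are as deposited, and they were not computed after quantile normalization. As deposited the median change of all genes was -0.17 in DT against DMSO and -0.19 in DTE against E. How far that shift adds to the equal signs was not tested. These are correlations across genes read on the same arrays, which are not independent of each other. SLC38A12 was 1 of the 4 that changed sign under entinostat.

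**Figure D3:**
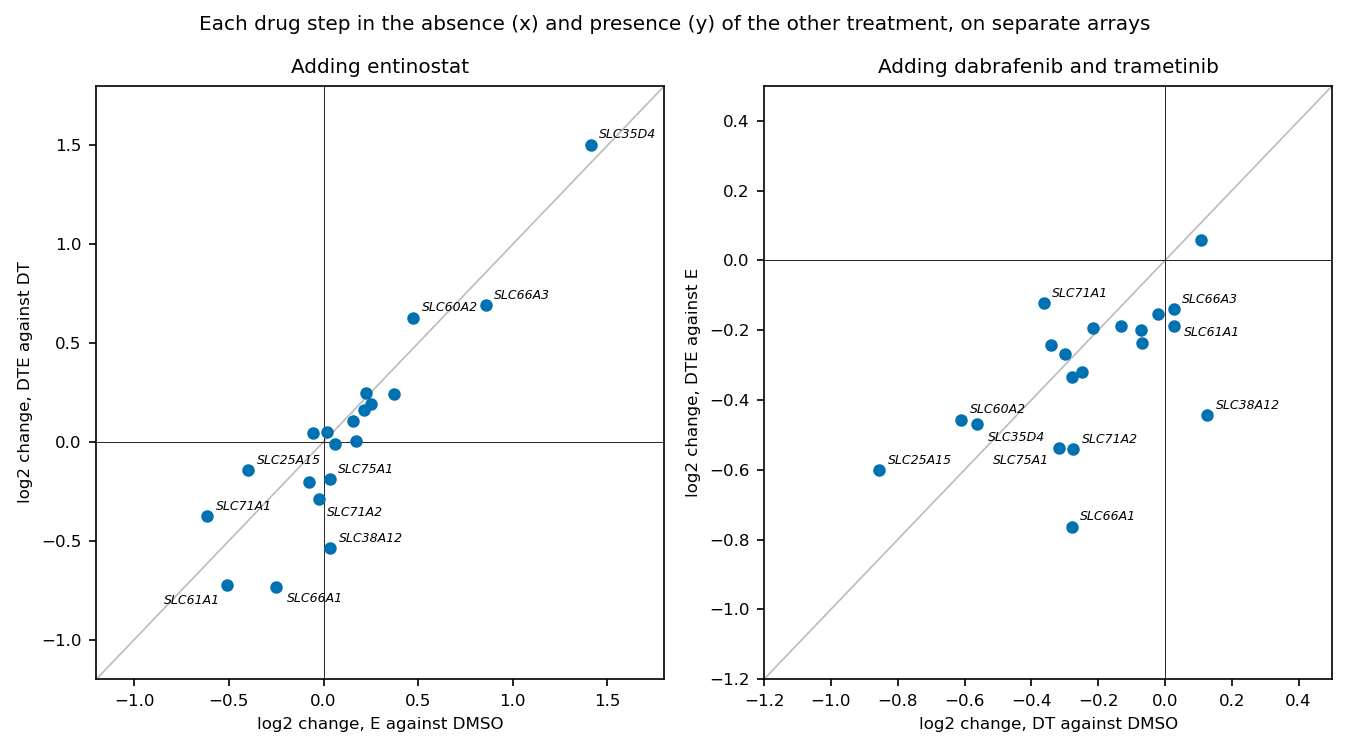
Log2 change of the 20 genes when entinostat (left) or dabrafenib and trametinib (right) was added, in the absence (horizontal axis) and presence (vertical axis) of the other treatment. The grey line marks equal changes, and the 10 genes called in any comparison are named. SLC35D4 lies at 1.41 and 1.503 in the left panel, and SLC66A1 at -0.28 and -0.76 in the right panel.

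Members of 1 family were compared with each other. A difference between 2 probe sets of the same array removes a shift common to the whole array, but not one that depends on intensity. In DT against DMSO, quantile normalization moved the dim SLC49A3 from -0.30 to -0.16 and SLC49A4 from 0.11 to 0.47. The log2 difference within each array, as deposited, was compared between treatments by a two-sided exact permutation test within arrays alike in the other treatment. It was not tested after quantile normalization. There were 8 pairs in 6 families and 2 drug steps, hence 16 tests, whose smallest possible p is 0.005. Of the 16, 11 had an adjusted p under 0.05 and 5 did not. This test was chosen after the data had been seen and uses the same arrays as the calls above, so it is no separate support for them. Pairs of genes outside these families were not tested, so the share that would pass among them is not known. The pairs of the PQ-loop family share genes and are not independent of each other. The entinostat effect given here is the mean of its steps with and without dabrafenib and trametinib.

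In the PQ-loop family, entinostat changed SLC66A1 by -0.49 and SLC66A3 by 0.77, a difference of -1.27 (exact permutation p = 0.005, adjusted 0.0133). SLC66A1 minus SLC66A3 was -1.03, -1.28 and -0.99 in E, against -0.08, 0.04 and 0.06 in DMSO. It was -1.69, -1.51 and -1.98 in DTE, against -0.12, -0.46 and -0.31 in DT, so the arrays with entinostat were all lower. SLC66A2, at 0.22, differed both from SLC66A1 (-0.72, exact permutation p = 0.005, adjusted 0.0133) and from SLC66A3 (-0.55, exact permutation p = 0.01, adjusted 0.02). For SLC66A2 minus SLC66A3 the arrays overlapped in DTE against DT (-0.50) but not in E against DMSO (-0.61).

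SLC60A1 changed by 0.02 with entinostat and SLC60A2 by 0.55, a difference of -0.53 (exact permutation p = 0.005, adjusted 0.0133). SLC71A1 changed by -0.50 and SLC71A2 by -0.16 (difference -0.34, exact permutation p = 0.01, adjusted 0.02). The 2 steps behind this mean were unlike: -0.59 in E against DMSO, with no overlap of arrays, and -0.086 in DTE against DT, where the arrays overlapped, and the difference between the steps was not tested. With dabrafenib and trametinib, SLC71A1 minus SLC71A2 moved by 0.16 (exact permutation p = 0.15, adjusted 0.16), which did not pass and averages -0.087 in DT against DMSO and 0.42 in DTE against E. The other pairs that did not pass under these drugs were SLC60A1 and SLC60A2 (0.25, adjusted 0.126), SLC66A1 and SLC66A2 (-0.21, adjusted 0.117) and SLC66A2 and SLC66A3 (-0.25, adjusted 0.0867). SLC35D4 and SLC35F6 differed by 1.60 under entinostat (exact permutation p = 0.005, adjusted 0.0133), SLC35F6 changing by -0.14. Under dabrafenib and trametinib they differed by -0.38 (exact permutation p = 0.015, adjusted 0.024), with arrays overlapping in DTE against E (-0.27). SLC66A1 and SLC66A3 also differed under these drugs, by -0.46 (exact permutation p = 0.005, adjusted 0.0133).

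The ornithine carriers differed as well. Dabrafenib and trametinib changed SLC25A15 by -0.73 and SLC25A2 by -0.16, a difference of -0.57 (exact permutation p = 0.005, adjusted 0.0133). SLC25A15 minus SLC25A2 was 1.07, 1.53 and 1.66 in DT and 1.23, 0.90 and 1.23 in DTE, against 1.76, 2.19 and 2.48 in DMSO and 1.39, 1.49 and 1.72 in E. The pair also differed under entinostat, by -0.46 (exact permutation p = 0.025, adjusted 0.0364). There the arrays overlapped in DTE against DT (-0.30) but not in E against DMSO (-0.61). The protein sequences of this pair are close, and whether a probe set also reads the other gene's message was not tested. In the remaining family, SLC49A3 and SLC49A4 differed by -0.37 under dabrafenib and trametinib (exact permutation p = 0.015, adjusted 0.024), at -0.28 and 0.08, and by -0.10 under entinostat (exact permutation p = 0.32, adjusted 0.32). Under dabrafenib and trametinib the arrays of this pair overlapped in DTE against E (-0.33) but not in DT against DMSO (-0.41).

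**Figure D4:**
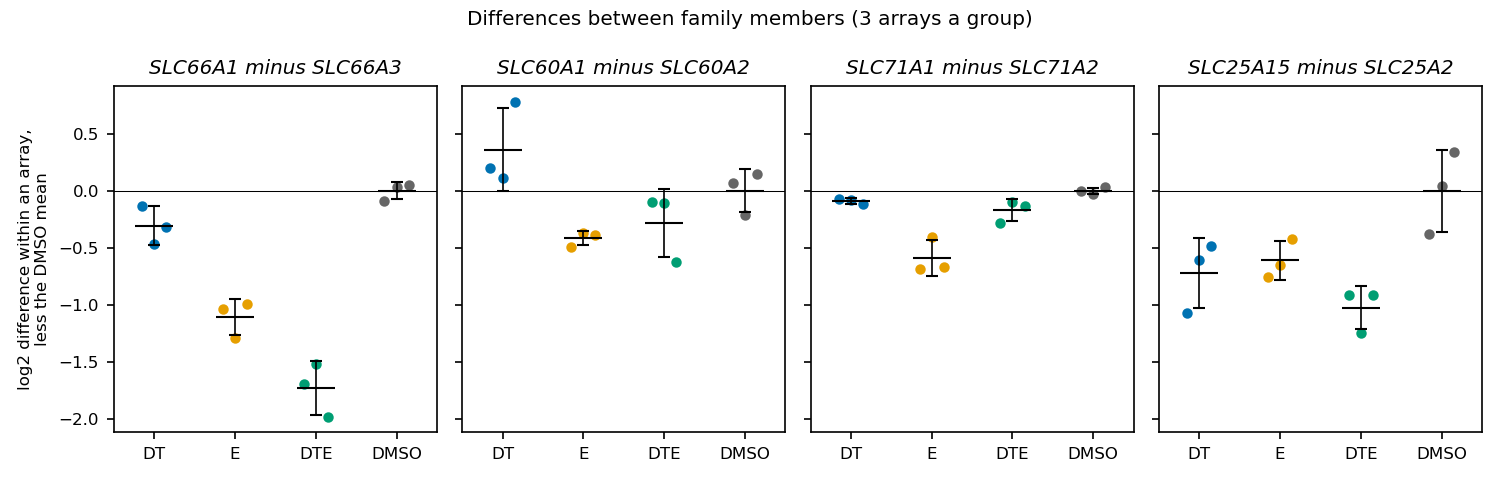
Log2 difference within an array between members of 4 families (vertical axis), less its mean in DMSO, in DT, E, DTE and DMSO. Points are arrays, wide bars means and whiskers SD (n = 3). SLC66A1 minus SLC66A3 is low in E and lower in DTE, and SLC71A1 minus SLC71A2 is lowest in E.

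The other 10 carriers were called in none of the 5 comparisons between groups as deposited: SLC25A2, SLC33A2, SLC35F6, SLC49A3, SLC49A4, SLC60A1, SLC66A2, SLC67A2, SLC68A1 and SLC9D1. Their changes ran from -0.34 to 0.37 on the log2 scale, and the 95% intervals of these changes reached from -0.65 to 0.66. The largest positive one was SLC68A1 in E, at 5.57, 5.18 and 5.40, against 5.24, 4.90 and 4.89 in DMSO, with 1 E array inside the DMSO range (change 0.37, adjusted p = 0.072). Without E replicate 2 or DMSO replicate 1 it was called. The largest negative one was SLC67A2 in DT, at 4.33, 4.72 and 4.44, against 4.77, 4.66 and 5.09 in DMSO (change -0.34, adjusted p = 0.10), and it was called without DT replicate 2 (-0.45, adjusted p = 0.041).

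SLC33A2 was among the steadiest, at 6.55 ± 0.04 in DT, 6.79 ± 0.05 in E, 6.55 ± 0.10 in DTE and 6.62 ± 0.17 in DMSO (SD, n = 3). SLC49A4 averaged 7.73 ± 0.09 in DT, 7.78 ± 0.07 in E, 7.84 ± 0.12 in DTE and 7.63 ± 0.10 in DMSO. Its E and DTE arrays all lay above DMSO and its DT arrays overlapped DMSO, and no change passed the test as deposited. SLC35F6 averaged 8.28 ± 0.11 in DT, 8.28 ± 0.24 in E, 8.08 ± 0.08 in DTE and 8.35 ± 0.15 in DMSO. SLC9D1 averaged 7.25 ± 0.17 in DT, 7.69 ± 0.06 in E, 7.50 ± 0.17 in DTE and 7.47 ± 0.17 in DMSO.

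SLC66A2 averaged 5.76 ± 0.07 in DT, 6.29 ± 0.11 in E, 5.95 ± 0.24 in DTE and 6.03 ± 0.18 in DMSO, and its DT arrays all lay below DMSO without passing the test. The dimmer SLC60A1 averaged 3.52 ± 0.19 in DT, 3.82 ± 0.03 in E, 3.504 ± 0.09 in DTE and 3.76 ± 0.26 in DMSO. SLC49A3 averaged 3.76 ± 0.15 in DT, 4.08 ± 0.08 in E, 3.82 ± 0.23 in DTE and 4.06 ± 0.20 in DMSO. SLC25A2 averaged 3.98 ± 0.26 in DT, 4.32 ± 0.28 in E, 4.14 ± 0.22 in DTE and 4.11 ± 0.20 in DMSO. In E and DTE these 4 genes overlapped DMSO, and of their DT arrays those of SLC49A3 (change -0.30, adjusted p = 0.13) and SLC66A2 (change -0.28, adjusted p = 0.15) lay below DMSO.

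**Figure D5:**
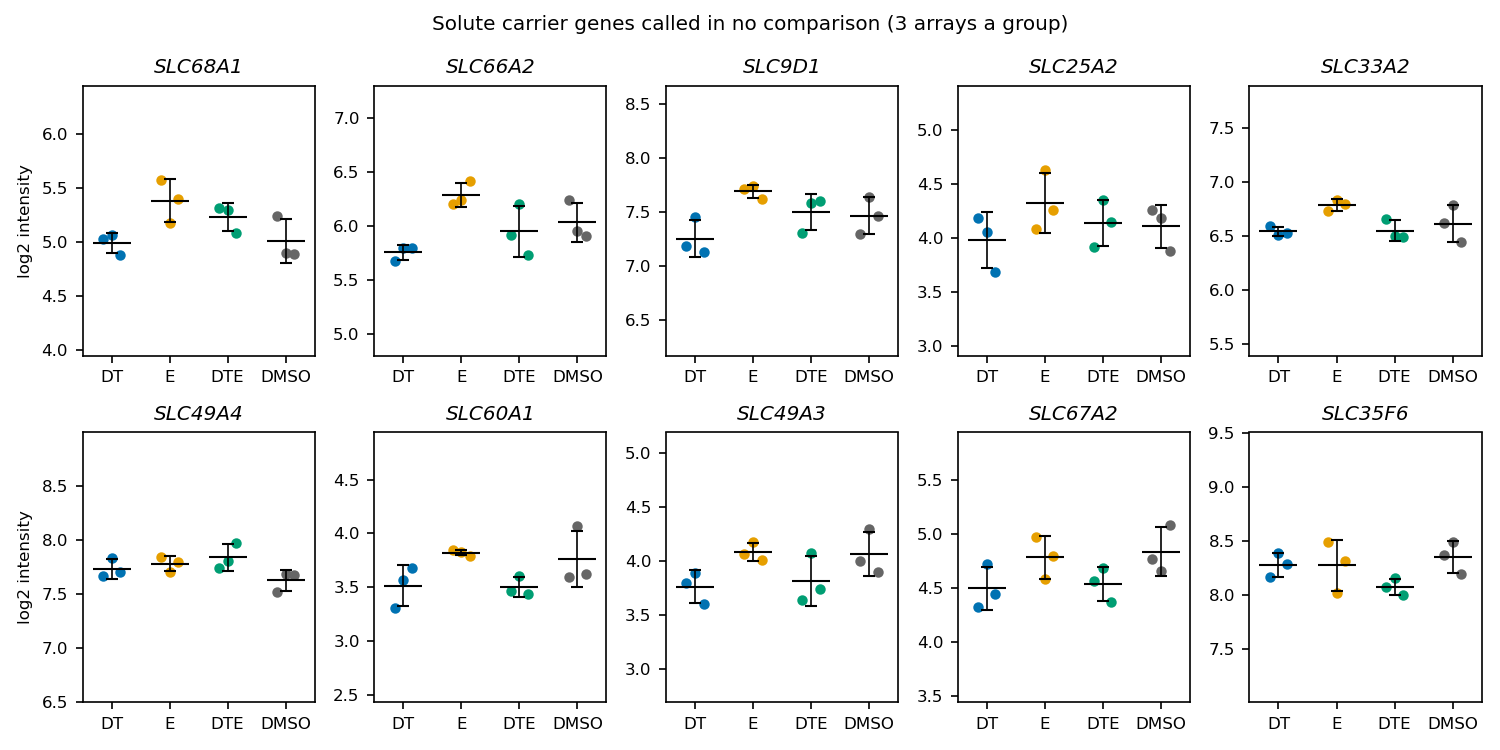
Log2 intensity (vertical axis, each panel spanning 2.5 log2 units) of the 10 solute carrier genes called in no comparison, in DT, E, DTE and DMSO. Points are single arrays, wide bars the mean and whiskers the SD (n = 3). Group means of SLC33A2 run from 6.55 to 6.79.

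Amino acid supply and carrier expression are linked through ATF4, a transcription factor that is translated when amino acids run short and that raises carriers and biosynthetic enzymes. Of 15 measured genes of an ATF4 and amino acid response list, none of them a carrier, 0 rose and 10 fell in DT against DMSO (3 after quantile normalization), with a median of -0.53 against -0.17 for all genes, of which 3.23% rose and 24.1% fell. In E against DMSO 1 rose and 6 fell (0 and 7 after quantile normalization), with a median of -0.28 against 0.07 for all genes, of which 12.5% rose and 3.54% fell. In DTE against DMSO 1 rose and 11 fell (2 and 8 after quantile normalization), with a median of -0.60 against -0.11 for all genes, of which 9.64% rose and 22.5% fell. After quantile normalization 8.55% of all genes were higher and 7.86% lower in DT, 9.67% and 8.45% in E, and 14.2% each way in DTE. TRIB3, a pseudokinase induced by ATF4, fell by 1.46 in DT, by 0.54 in E and by 1.40 in DTE. ASNS, asparagine synthetase, fell by 0.95 in DT (-0.60 after quantile normalization) and by 0.31 in DTE (-0.070 after quantile normalization), and stood at -0.12 (adjusted p = 0.55) in E. ATF4 itself fell by 0.51 in DT and by 0.42 in DTE as deposited, and stood at -0.16 and -0.15 there after quantile normalization. ATF3, another stress transcription factor, was the 1 gene of the list called higher in E (0.55) and in DTE (1.22) as deposited. Whether the changes of this list bear on those of the carriers was not tested.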

How the data were processed

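Gene expression was measured in 12 samples of A2058 cells (4 groups of 3), 1 column of intensity values per array. The deposited values are intensities, 1 for each probe set and array, on a scale judged linear from the values. RMA and the Transcriptome Analysis Console are named per the submitters' processing notes, with versions and any further scaling not given in the sources used here. Array medians differ between arrays. The number of arrays limits the precision.

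Of 29396 probe sets 14748 had 1 gene symbol each and 14648 had none. Symbols were checked against RefSeq by NCBI gene identifier (14748 matched, 0 changed). The brightest probe set per gene gave 14580 genes. Intensities were converted to log2 and fitted with limma 3.58.1 in R 4.3.3 (group means over all 12 arrays, eBayes, 8 residual degrees of freedom), with Benjamini-Hochberg adjustment over all genes in each of 6 comparisons and a threshold of 0.05. No dim genes were left out. The fit was tested on simulated data with independent noise for each gene and array. Those data held no array-wide or intensity-dependent shift, so they cannot check how such shifts affect the calls.

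The members and lists were chosen with earlier results of these data known. Named genes were the called members whose arrays did not overlap (against DMSO up to 8 in each direction, for the other pairs of groups up to 5, for the departure up to 4), up to 2 called members each way of any of 16 transport lists, and 17 genes named in advance. Of those 17, 0 had a probe set with their symbol, and of the 16 lists 3 had a member with one (4 genes in all). Whether probe sets without a symbol read the missing genes is not known here. The lists are therefore not summarised and members are grouped by family. All uncalled members were described after their values were seen. Alternatives were quantile normalization, median centring, leaving out dim genes, the mean over probe sets, an offset of 16, an intensity trend, a replicate block, symbols as annotated, and leaving out each array. The exact permutation test of family pairs was chosen after seeing the data. Promoters came from RefSeq, 15 of 20 members having one in the table used. Figures and permutation tests used Python 3.11.15, scipy 1.17.1 and matplotlib 3.10.9.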

Additional observations from a re-analysis of the deposited data

How the results depend on the processing

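Of the 28 calls in the 5 comparisons between groups, 16 held in all 20 alternative settings, 8 were lost after quantile normalization, 8 after median centring and 5 without DMSO replicate 2. Calls lost on leaving out an array are named beside each result. After quantile normalization SLC71A1 in DT against DMSO turned to 0.016, no longer called. The number of called members in DT against DMSO was 2 after quantile normalization and 2 after median centring (4 as deposited), and in DTE against E it was 2 and 1 (5 as deposited). The members' median change in DT against DMSO was 0.035 after quantile normalization, -0.060 after median centring and -0.17 with an offset of 16. In E against DMSO it was -0.15 after median centring. In DTE against DMSO it was -0.064 after quantile normalization and -0.12 with an offset of 16. In DTE against DT it was -0.12 after quantile normalization and -0.15 after median centring. In DTE against E it was -0.020 and -0.031 under those scalings. Leaving out 1 array gave 1 to 5 called members in DT against DMSO, 4 to 7 in DTE against DT and 3 to 6 in DTE against E, and medians of -0.30 to -0.16 in DT, 0.013 to 0.17 in E and -0.31 to -0.13 in DTE (each against DMSO), and of -0.34 to -0.24 in DTE against E. The causes of these shifts were not tested. The departure from additivity was called for 0 members under every setting run. Leaving out genes below the lower quartile, averaging probe sets, an intensity trend and annotated symbols moved no count by over 1.5 times. None of these settings can alter a member's log2 change, so the medians could not move. With 0 symbols changed, annotated symbols repeat the main fit. Each member has 1 probe set, so averaging can alter only its p-values, through the other genes. The 20 settings include these, so a call kept in all 20 was not put to 20 separate tests. The replicate number was not used as a pairing in the main fit, in the fits leaving out an array or in the permutation test. Same-numbered arrays of different groups deviated from their group means with correlations of -0.10 to 0.17, over 0.1 in 3 of 18 pairs. Arrays of other numbers gave -0.17 to 0.17, over 0.1 in 2 of 36 pairs. Whether arrays of the same number share a batch was not tested. With the replicate block 31 member values were called in place of 28, 0 of the 28 being lost. The block added SLC25A15 (adjusted p = 0.036) and SLC68A1 (adjusted p = 0.045) in E against DMSO. SLC38A12 in DTE against E was the other addition (adjusted p = 0.049). The level above background of a probe set is not known here, which limits the dimmest members most.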

Other observations

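Among metallothioneins, small proteins that bind zinc and copper, and their regulator MTF1, 10 genes were measured. In E against DMSO 2 rose and 0 fell, against 12.5% and 3.54% of all genes: MT1X by 0.88 (SE 0.12, adjusted p = 6.3e-05) and MT2A by 0.40 (SE 0.12, adjusted p = 0.028). In DT against DMSO 1 rose and 3 fell, against 3.23% and 24.1% of all genes. After quantile normalization 1 rose and 1 fell, against 8.55% and 7.86% of all genes. As deposited MT1F rose by 0.42 (adjusted p = 0.036), and MT2A fell by 0.82 (adjusted p = 5.8e-05, with a change of -0.44 after quantile normalization). In DTE against DMSO MT2A fell by 0.54 (adjusted p = 0.0019), and MT1X stood at -0.01 (adjusted p = 0.97). After quantile normalization MT2A stood at -0.24 in DTE and 0 genes of the list were called, against 14.2% of all genes in each direction. Metallothionein genes are close copies of each other, and which of them a probe set reads was not tested.

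Among 6 measured partner proteins of carriers, 2 fell in DT against DMSO and 0 rose as deposited, against 24.1% and 3.23% of all genes. After quantile normalization 2 rose and 0 fell, against 8.55% and 7.86% of all genes. EMB (embigin) fell by 0.47 (adjusted p = 0.041; -0.28 after quantile normalization) and NPTN (neuroplastin) by 0.56 (adjusted p = 0.001; -0.18 after quantile normalization). RTN2 (reticulon 2) had the largest changes of the list, rising by 1.59 in E (SE 0.12, adjusted p = 6.8e-08) and by 1.34 in DTE (SE 0.12, adjusted p = 2.1e-07) against DMSO. It stood at 0.28 (adjusted p = 0.0996) in DT. BSG (basigin), which accompanies lactate carriers to the membrane, stood at -0.16 in DT, 0.21 in E and -0.25 in DTE against DMSO (adjusted p = 0.35, 0.27 and 0.10).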
